A study of Onthophagus taurus with 60 samples.

Results

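The abdominal support structures of the beetle Onthophagus taurus were compared with the dorsal prothorax, a flat region of the thoracic body wall, and the thoracic horn served to show which part of that difference a second outgrowth shared. The comparison holds 12 of the series' 60 libraries, the 6 support structure libraries and the 6 dorsal prothorax libraries, chosen by their tissue label and matched by replicate number from 1 to 6. All were polyA RNA libraries from the epithelium of males at the prepupal stage. The support structures are bilateral projections taken from abdominal segments 3 to 6, the horn is an outgrowth of the prothorax, and the dorsal prothorax is the dorsal centre of that same segment. Each tissue had 6 biological replicates, per the series description, which also says that the dorsal prothorax was taken as a contrast with no published tie to wings. No genetic change, drug or other treatment is labelled in any of these groups. Since the support structures differ from the dorsal prothorax both in shape and in body region, outgrowth and segment cannot be told apart here. The horn is an outgrowth of the same segment as the dorsal prothorax. The labels do not say that horn and dorsal prothorax differ in shape alone, and their cell content was not tested.

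In the prepupa of a beetle the epidermis comes away from the larval cuticle, grows and folds, and lays down the cuticle of the pupa. Outgrowths such as horns and abdominal projections form at that stage as sheets of epidermis that expand under the old cuticle. The horn is kept or removed as the adult forms, depending on species and sex, and the support structures are features of the pupa. The series title ties horns to wing serial homologs, structures on wingless segments held to share an origin with wings.

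Library totals, in units of 1e6 counts, ran from 14.87 to 21.41 in the support structures, from 13.11 to 16.63 in the horn and from 13.67 to 16.68 in the dorsal prothorax. A transcript was kept when enough libraries of a tissue passed a minimum count of 10, which left 13024 of 23725 transcripts for testing. Levels below are CPM, counts per 1e6 counts of a library, scaled by the trimmed mean of M values (TMM) over these 18 libraries. Differences are log2 units ± a standard error worked back from the test, as the size of the difference over the root of its F statistic. That error is only a rough guide where a tissue is near 0 counts. The TMM factors were 1.1 to 1.28 for support structure libraries, 0.571 to 0.68 for horn libraries and 1.29 to 1.51 for dorsal prothorax libraries. The 10 most abundant transcripts took 27.7 to 33.2% of the support structure counts, 38.2 to 41.4% of the horn counts and 34.5 to 36.7% of the dorsal prothorax counts. On the first principal component of log2 CPM, which held 24.1% of the variance, the support structures (-117 to -93.6) stood apart from the horn (57.5 to 83.3) and from the dorsal prothorax (15.7 to 49.5), with no overlap. On the second, with 17.2%, the support structures (0.842 to 21.7) stood between the horn (42.9 to 85.5) and the dorsal prothorax (-89.2 to -77.5). Nearly all genes carry only locus numbers, and 29 gene lists had been drawn up for patterning, signalling, cuticle, other cell types and protein families. Those made of gene words were searched among the few other symbols, and none matched a gene other than by a chance run of letters. Those made of protein signatures were not applied, since no sequences were used here. Of 35 marker symbols, 0 matched. The labelled tissues therefore could not be checked against markers, and the share of muscle, nerve, fat body or blood cells in them was not tested.

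Support structures and dorsal prothorax differed in 4621 of 13024 transcripts, 35.5% of those tested (edgeR's quasi-likelihood test with the replicate number as a block, Benjamini-Hochberg adjusted p under 0.05). Of these, 2519 (19.3% of those tested) were higher and 2102 (16.1%) were lower in the support structures. The strong differences lay mainly on the higher side: 1068 transcripts were higher by at least 4-fold and 281 were lower by at least 4-fold. In the 6 same-numbered pairs of libraries, 4088 of the 4621 transcripts (88.5%) moved the same way in every pair. Of all 13024 tested, 5123 (39.3%) did so, the 4088 among them. The 4621 were called from these same pairs, so the share of 88.5% is partly built in and is only a description. The 1068 strongly higher transcripts made up 18 ± 1.89% of the counts in the support structures, 24.1 ± 1.54% in the horn and 1.54 ± 0.176% in the dorsal prothorax (SD, n = 6 each). The 281 strongly lower ones made up 0.483 ± 0.182% in the support structures, 2.44 ± 0.398% in the horn and 3.17 ± 0.603% in the dorsal prothorax. Scaled by total counts in place of TMM, 5091 transcripts passed the test. The higher ones made up 36.8% of these calls, against 54.5% with TMM, and the median difference over all transcripts shifted by -0.239. In whole tissue, fewer cells of a type and less RNA per cell cannot be told apart. Among 601 non-coding transcripts 61 were higher and 132 lower in the support structures (32.1% called), and among 12423 coding ones 2458 were higher and 1970 lower (35.6% called).

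**Figure D1:**
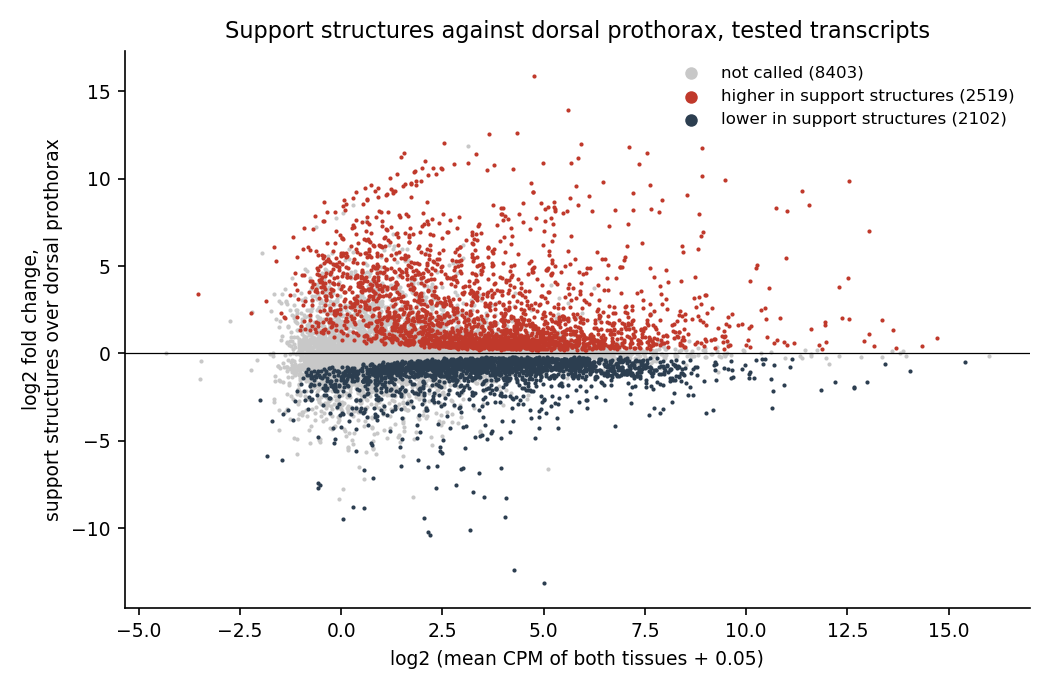
Each point is 1 of 13024 tested transcripts, with its mean level in both tissues on the horizontal axis (log2 of CPM + 0.05) and its difference, support structures over dorsal prothorax, on the vertical axis (log2 fold change). The 2519 red points were higher and the 2102 dark points were lower in the support structures, and the points beyond 4-fold lie mostly above the zero line.

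A first group of transcripts was abundant in the support structures and close to absent from both prothoracic tissues. XM_023051097.1 (no gene matched) ran from 483 to 1620 CPM in the support structures, with a median of 794. It ran from 0 to 0.202 CPM in the horn (median 0) and from 0 to 0.78 CPM in the dorsal prothorax (median 0.249). Its difference was 11.76 ± 0.50 log2 units over the dorsal prothorax (adjusted p = 3.74e-08, edgeR) and 14.09 ± 0.60 over the horn (adjusted p = 4.45e-08). All 6 support structure libraries lay far above all 12 prothoracic ones. XM_023052571.1 (no gene matched) ran from 210 to 453 CPM in the support structures, up to 0.112 CPM in the horn and up to 0.585 CPM in the dorsal prothorax, higher by 10.83 ± 0.55 log2 units than in the dorsal prothorax (adjusted p = 1.11e-07, edgeR). XM_023060367.1 (no gene matched), at 34.7 to 164 CPM in the support structures, had 0 counts in the horn and up to 0.171 CPM in the dorsal prothorax. Its level was at least 1960-fold above that of the horn, taking 3 counts over the 6 libraries as the limit that a count of 0 allows. LOC111428168 (XM_023063584.1) ran from 35.7 to 91.4 CPM in the support structures, with 1 count in all horn libraries and 3 counts in all dorsal prothorax libraries. Its ratio to the dorsal prothorax was 2570, with a 95% counting interval of 878 to 12500. LOC111428099 (XM_023063497.1), at 13.3 to 32 CPM in the support structures, had 2 counts in the horn and 0 in the dorsal prothorax, a difference of at least 855-fold from the flat epidermis. For these genes the groups did not overlap in any library. Counting intervals and limits cover counting error only.

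Of the transcripts called in support structures against dorsal prothorax, 59 had 0 counts in all dorsal prothorax libraries, and 7 of those also had 0 counts in the horn. How many of all tested transcripts had 0 counts there was not computed, so the 59 have no base. A transcript at 0 in a tissue passed the filter only through its counts in the other tissues. One of the 7 was LOC111419116 (XM_023051881.1), at 9.68 to 17.4 CPM in the support structures, a level at least 266-fold above the horn and at least 576-fold above the dorsal prothorax. Others with 0 counts in the dorsal prothorax were present in the horn. XR_002707541.1 (no gene matched) ran from 49.3 to 156 CPM in the support structures and from 0.224 to 13.3 CPM in the horn. Its support structure level was at least 3860-fold above that of the dorsal prothorax. XM_023047007.1 (no gene matched), at 14.3 to 51.2 CPM in the support structures and 0 to 12 CPM in the horn, was at least 1036-fold above the dorsal prothorax, and at least 683-fold without replicate 4. XM_023053839.1 (no gene matched), at 37.7 to 212 CPM in the support structures and 0.112 to 7.5 CPM in the horn, had counts in a single dorsal prothorax library, at 0.195 CPM, and was higher by 12.02 ± 0.90 log2 units (adjusted p = 1.75e-06, edgeR). LOC111422534 (XM_023055738.1) ran from 40.6 to 80.6 CPM in the support structures, and was at 0 in 5 horn libraries, at 20.3 CPM in horn replicate 6 and at 0 in the dorsal prothorax. It was not particular to the support structures. On the scale of all 8 tissues it averaged 60.7 CPM there and 53.5 CPM in the wing. The carinated margin of the prothorax averaged 13.5 CPM and the head 10.5 CPM. With the 4 tested transcripts of LOC111422534 summed, the difference was 5.09 ± 0.36 log2 units (adjusted p = 2.33e-07, edgeR), smaller than that of the transcript. In LOC111427445, likewise, XM_023062598.1 stood at least 496-fold above the dorsal prothorax and the gene, over 4 transcripts, was higher by 1.62 ± 0.20 log2 units (adjusted p = 1.62e-05, edgeR). The expected counts divide reads between transcripts, so a level is less certain for a transcript than for its gene.

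Fewer transcripts were close to absent from the support structures and present in the flat epidermis. XM_023051862.1, which matched no gene, was at 0 in all 6 support structure libraries, with 32.9 to 57.6 CPM in the horn and 45.8 to 75.5 CPM in the dorsal prothorax. This is a level at least 2709-fold below that of the flat epidermis. The same pattern held for 2 transcripts of LOC111419103. XM_023051863.1 had 0 counts in the support structures, 17.3 to 29.9 CPM in the horn and 32.8 to 46.8 CPM in the dorsal prothorax (median 37.8), so it was below the flat epidermis by at least 1611-fold. It was also lower in the horn than in that tissue, by -0.86 ± 0.10 log2 units (adjusted p = 0.000644, edgeR), with no overlap. XM_023051861.1 had up to 0.256 CPM in the support structures, 15.3 to 43.1 CPM in the horn and 9.12 to 20.6 CPM in the dorsal prothorax, a difference of -7.50 ± 0.64 log2 units (adjusted p = 4.65e-06, edgeR). LOC111423298 (XM_023056543.1) had a median of 0.359 CPM in the support structures (0 to 0.476), 23.2 CPM in the horn (19.9 to 35.6) and 33 CPM in the dorsal prothorax (20 to 37.1). It fell by 6.55 ± 0.45 log2 units against the dorsal prothorax (adjusted p = 9.23e-07, edgeR), and horn and dorsal prothorax differed by -0.24 ± 0.33 (adjusted p = 0.627). In all 4 of these transcripts both prothoracic tissues lay above every support structure library.

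Some transcripts of the lower side were also called lower in the horn. LOC111421165 (XM_023054309.1) ran from 0 to 0.214 CPM in the support structures, from 0 to 15.8 CPM in the horn and from 7.83 to 79.5 CPM in the dorsal prothorax, lower in the support structures by -9.37 ± 1.09 log2 units (adjusted p = 4.35e-05, edgeR). LOC111428028 (XM_023063423.1) ran from 0 to 1.11 CPM in the support structures, from 0.958 to 6.37 CPM in the horn and from 11.5 to 31 CPM in the dorsal prothorax. Its gene, over 2 transcripts, differed by -3.33 ± 0.13 log2 units (adjusted p = 8.26e-10, edgeR). XM_023044414.1 (no gene matched) was at 13.3 to 21.4 CPM in the dorsal prothorax, at 0 in 4 horn libraries, and at 0.342 CPM in the single support structure library with any count. XM_023054874.1, XM_023045326.1 and XM_023045328.1, also without a gene, were each below 0.5 CPM in every support structure library and were not called between horn and dorsal prothorax (adjusted p = 0.18, 0.489 and 0.141, edgeR). Their medians were 9.34, 21.1 and 7.12 CPM in the horn and 17.2, 29.8 and 16.8 CPM in the dorsal prothorax. Of the called transcripts, 13 had 0 counts in all support structure libraries, and every one of these had counts in the horn. The number of all tested transcripts at 0 in the support structures was likewise not computed.

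**Figure D2:**
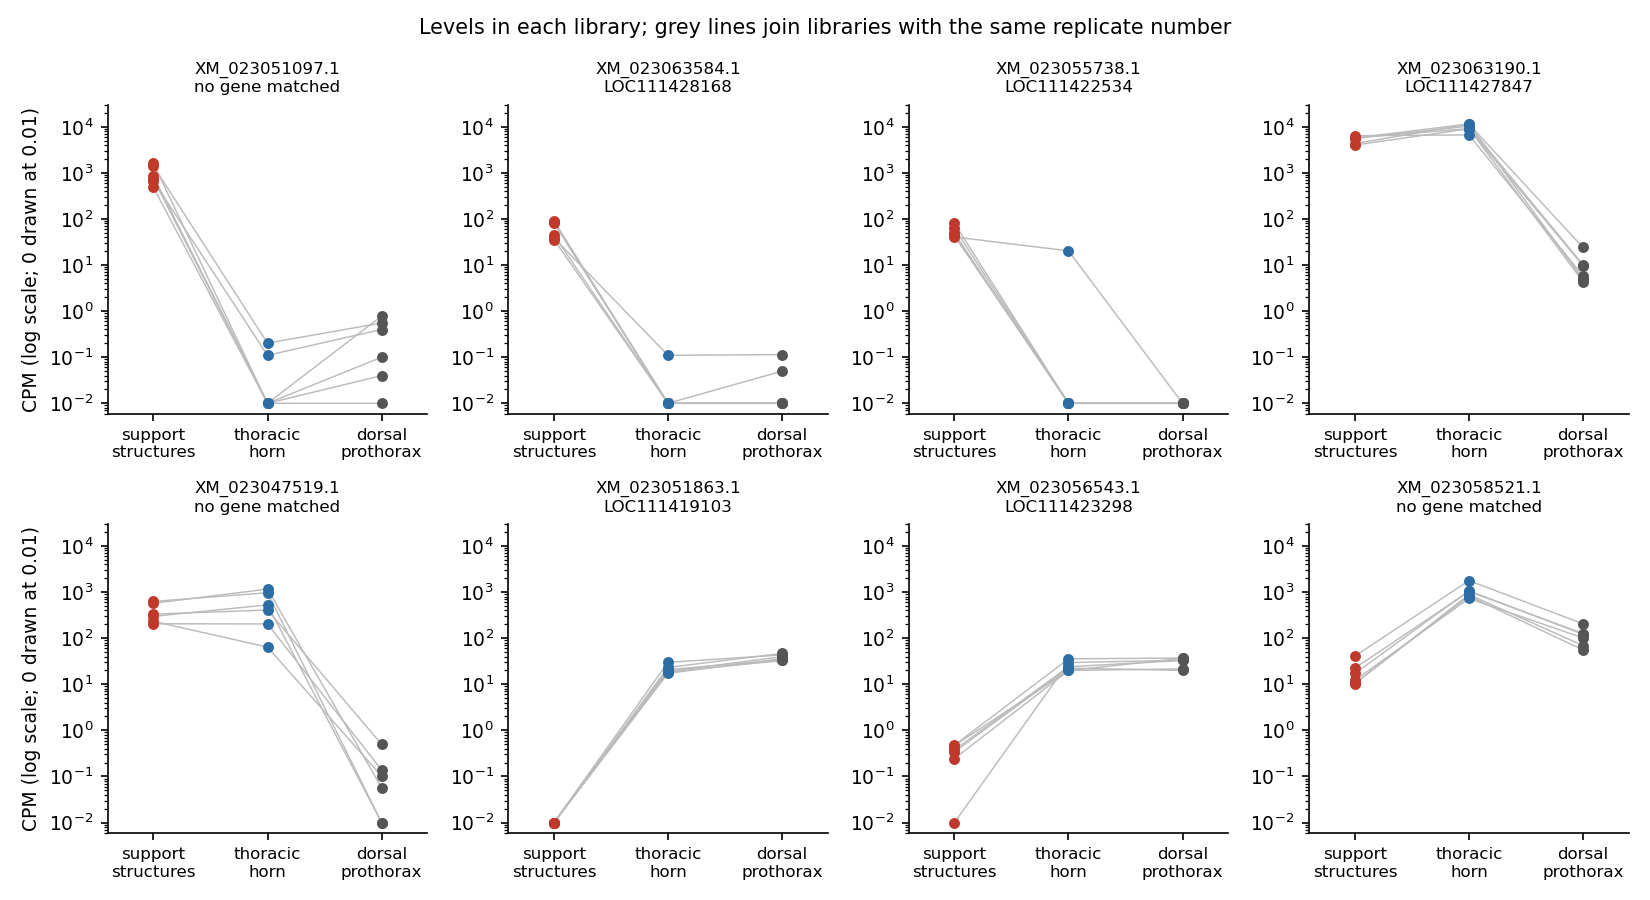
Levels of 8 transcripts in each library (CPM, log axis, with 0 drawn at 0.01), with support structures left, thoracic horn in the middle and dorsal prothorax right, and grey lines that join libraries with the same replicate number. XM_023051097.1 and XM_023063584.1 were high in the support structures alone of these 3 tissues, XM_023055738.1 was so but for horn replicate 6, XM_023063190.1 and XM_023047519.1 were high in both outgrowths, XM_023051863.1 and XM_023056543.1 were below 0.5 CPM in the support structures alone, the first of them with its horn libraries also below the dorsal prothorax, and XM_023058521.1 was lowest in the support structures and highest in the horn.

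The second question was which part of the difference the thoracic horn shared. Horn and dorsal prothorax differed in 4424 transcripts (34% of those tested), 2125 higher (16.3% of those tested) and 2299 lower (17.7%) in the horn. Against the dorsal prothorax, 2093 transcripts were called in the same direction in both outgrowths, 1136 higher and 957 lower, which is 45.3% of the support structure calls and 47.3% of the horn calls. A further 457 were called in opposite directions and 2071 of the support structure calls were not called in the horn. By direction, 45.1% of the transcripts higher in the support structures were called higher in the horn, against 16.3% of all tested. Of the lower ones 45.5% were called lower in the horn, against 17.7% of all tested. Both comparisons use the same 6 dorsal prothorax libraries, so chance deviations of those libraries move both, and the overlap has no test. In a fit of 5 tissues, which tested 14254 transcripts, 2530 were shared in this way (47.3% of the support structure calls and 47.4% of the horn calls). With the horn set against the posterior margin of the prothorax in that fit, no library served in both. Then 1944 went in the same direction (36.4% of 5348 support structure calls and 36.6% of 5311 horn calls) and 930 in opposite directions. Of all tested transcripts 37.3% were called in horn against posterior margin in either direction, so that share is no base for the 1944 alone. Scaled by total counts, 3363 were shared, 66.1% of the support structure calls and 37.9% of the horn calls. The horn's libraries carry the lowest TMM factors, and how far that enters the shared count was not tested beyond these scalings.

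Support structures and horn were then compared directly, and 4679 transcripts differed (35.9% of those tested), 2598 higher and 2081 lower in the support structures. Of the 2093 shared transcripts, 848 also differed between the outgrowths and 1245 did not pass that test, which does not show that their levels were alike. In 2401 of the 4621 transcripts, 52%, the support structures differed in the same direction from both the dorsal prothorax and the horn, 1357 higher and 1044 lower. In 1511 of those, horn and dorsal prothorax were not called different. The transcripts higher in the support structures and not called in the horn (1154) had a median difference of 2.08 log2 units, those higher in both (1136) one of 1.26 in the support structures and 1.38 in the horn, and the median size of all tested differences was 0.582. At a size of at least 2-fold in both outgrowths, 576 transcripts were higher and 249 lower. The 576 took 20.4 ± 1.97% of the counts in the support structures, 29.6 ± 1.6% in the horn and 3.93 ± 0.213% in the dorsal prothorax (SD, n = 6 each). The 249 took 0.538 ± 0.0622%, 0.316 ± 0.0534% and 2.11 ± 0.16% of the counts in support structures, horn and dorsal prothorax.

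**Figure D3:**
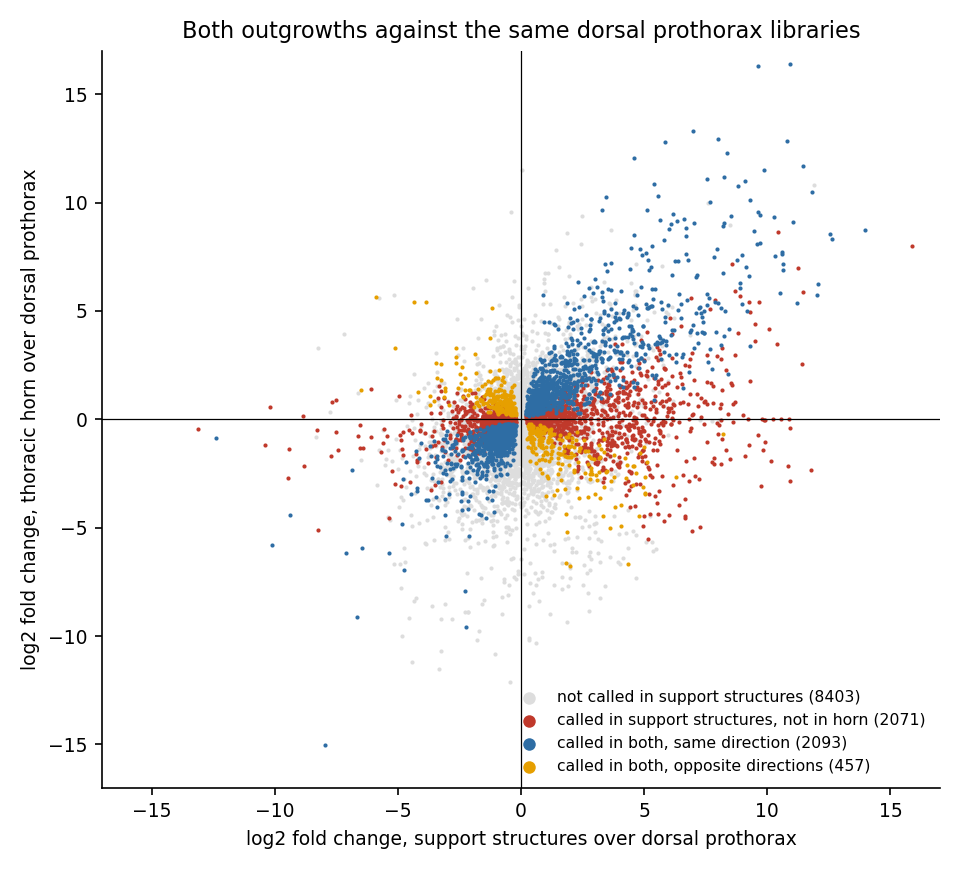
Each point is a tested transcript, with its difference from the dorsal prothorax in the support structures on the horizontal axis and in the thoracic horn on the vertical axis (log2 fold change). Both axes use the same 6 dorsal prothorax libraries, and the fitted value of a transcript at 0 in a tissue is no bound. The 2093 blue points were called in the same direction in both outgrowths, the 2071 red points in the support structures but not in the horn, and the 457 orange points in opposite directions.

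The following increases were shared and did not pass the test between the outgrowths. LOC111427847 (XM_023063190.1) ran from 4010 to 6380 CPM in the support structures (median 5660), from 6660 to 11500 CPM in the horn (median 9700) and from 4.38 to 24 CPM in the dorsal prothorax (median 7.74). Both outgrowths lay above the flat epidermis in every library, by 9.28 ± 0.44 log2 units in the support structures (adjusted p = 7.68e-08, edgeR) and 10.11 ± 0.46 in the horn (adjusted p = 4.59e-08). The outgrowths differed by -0.83 ± 0.31 (adjusted p = 0.0562, edgeR), with every horn library above every support structure library. On the scale of all 8 tissues this transcript averaged 5990 CPM in the support structures and 10800 CPM in the horn, 26.5 to 82.6 CPM in the wing, head and margins, and 11.2 CPM in the dorsal prothorax. XM_023047519.1 (no gene matched) ran from 205 to 628 CPM in the support structures (median 316), from 64.1 to 1160 CPM in the horn (median 468) and from 0 to 0.499 CPM in the dorsal prothorax (median 0.079). It was higher by 11.45 ± 0.78 log2 units in the support structures (adjusted p = 9.43e-07, edgeR) and by 11.69 ± 0.79 in the horn (adjusted p = 8.35e-07). LOC111420339 (XM_023053314.1) ran from 79.2 to 897 CPM in the support structures (median 179), from 6.96 to 689 CPM in the horn (median 53.7) and from 0 to 0.15 CPM in the dorsal prothorax (median 0.0975). It was higher by 11.82 ± 0.92 log2 units in the support structures (adjusted p = 2.22e-06, edgeR) and by 10.47 ± 0.91 in the horn. REPTOR-B (XM_023061826.1), a symbol printed as the gene table gives it, was shared at a smaller size, with 8.46 to 16.7 CPM in the support structures, 8.92 to 13.7 CPM in the horn and 1.17 to 4.7 CPM in the dorsal prothorax. Its differences were 2.36 ± 0.28 log2 units in the support structures (adjusted p = 4.22e-05, edgeR) and 2.27 ± 0.28 in the horn (adjusted p = 6.32e-05).

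Shared decreases that did not pass the test between the outgrowths follow. LOC111414125 (XM_023045312.1) ran from 4.09 to 8.59 CPM in the support structures (median 4.62), from 2.02 to 9.09 CPM in the horn (median 4.54) and from 32.9 to 106 CPM in the dorsal prothorax (median 57.8). No dorsal prothorax library reached down to either outgrowth. It differed by -3.43 ± 0.25 log2 units in the support structures (adjusted p = 1.26e-06, edgeR) and -3.60 ± 0.25 in the horn (adjusted p = 1.02e-06). LOC111420729 (XM_023053771.1) had 0.555 to 3.72 CPM in the support structures, 0.106 to 3.03 CPM in the horn and 4.22 to 49.4 CPM in the dorsal prothorax, a difference of -3.87 ± 0.49 log2 units in the support structures (adjusted p = 8.9e-05, edgeR) and -3.72 ± 0.49 in the horn. LOC111419668 (XM_023052514.1) varied widely, with 0.183 to 2.12 CPM in the support structures, 0.224 to 31.9 CPM in the horn and 2.86 to 104 CPM in the dorsal prothorax. It differed by -4.49 ± 0.89 log2 units in the support structures (adjusted p = 0.00209, edgeR), and horn and dorsal prothorax overlapped. XM_023059846.1 (LOC111425664) and XM_023062137.1 (LOC111427146) fell by 5.36 ± 1.60 and 4.84 ± 1.53 (log2; edgeR, adjusted p = 0.0211 and 0.028). The first was not called without replicate 1, 3 or 6 (adjusted p = 0.066, 0.0633 and 0.0651), the second without replicate 2, 4, 5 or 6 (adjusted p = 0.0711, 0.0773, 0.0607 and 0.0669), and neither without the block (adjusted p = 0.0513 and 0.0615). Summed over their 2 tested transcripts each, LOC111425664 and LOC111427146 fell by 3.54 ± 0.39 and 3.03 ± 0.24 (log2; edgeR, adjusted p = 7.38e-06 and 4.44e-07).

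The horn went the other way for 229 of the transcripts higher and 228 of those lower in the support structures. XM_023058521.1 (no gene matched) ran from 10.3 to 40.8 CPM in the support structures (median 14.7), from 726 to 1780 CPM in the horn (median 956) and from 55.5 to 205 CPM in the dorsal prothorax (median 112). The 3 tissues did not overlap. It differed from the dorsal prothorax by -2.64 ± 0.16 log2 units in the support structures (adjusted p = 2.55e-07, edgeR) and by 3.29 ± 0.16 in the horn (adjusted p = 6.27e-08). XM_023051051.1 (no gene matched) had the same order, with 0.704 to 2.89 CPM in the support structures, 58.1 to 159 CPM in the horn and 8.14 to 28 CPM in the dorsal prothorax. LOC111427828 (XM_023063172.1) ran from 16.5 to 36 CPM in the support structures, from 428 to 630 CPM in the horn and from 84.4 to 239 CPM in the dorsal prothorax, with differences of -2.50 ± 0.22 log2 units in the support structures (adjusted p = 5.68e-06, edgeR) and 2.09 ± 0.22 in the horn (adjusted p = 2.09e-05). In the other direction LOC111427236 (XM_023062256.1) ran from 23.9 to 250 CPM in the support structures, from 0 to 1.82 CPM in the horn and from 0.585 to 14.7 CPM in the dorsal prothorax. It was higher by 4.06 ± 0.84 log2 units in the support structures (adjusted p = 0.00258, edgeR) and differed by -3.97 ± 0.96 in the horn (adjusted p = 0.00743). LOC111426932 (XM_023061829.1), at 27.2 to 114 CPM in the support structures, had counts in a single horn library, at 0.639 CPM, and 0 to 7.19 CPM in the dorsal prothorax. On the scale of all 8 tissues it averaged 71.7 CPM in the support structures and 22.2 to 41.5 CPM in the margins, wing and head. It was higher in the support structures by 4.78 ± 1.01 log2 units (adjusted p = 0.00303, edgeR), and by 4.45 ± 0.17 with its 2 tested transcripts summed. In the horn it differed by -4.44 ± 1.43 (adjusted p = 0.0323, edgeR), and horn and dorsal prothorax overlapped. LOC111425220 (XM_023059116.1) had 5.65 to 17.8 CPM in the support structures, 0 counts in the horn and 0 to 2.44 CPM in the dorsal prothorax, higher in the support structures by 4.34 ± 1.20 log2 units (adjusted p = 0.0313, edgeR). Horn and dorsal prothorax differed by -6.69 ± 2.07 (adjusted p = 0.0491, edgeR), with 2 dorsal prothorax libraries also at 0. The call in the support structures was lost without replicate 1, 2, 4 or 5 (adjusted p = 0.0788, 0.0586, 0.066 and 0.0525, edgeR). The sum of the gene's 2 tested transcripts was higher there by 3.08 ± 0.28 log2 units (adjusted p = 1.43e-06, edgeR).

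Some strongly higher genes were neighbours. With transcripts summed to genes, 685 of the 7084 tested genes placed on a chromosome (9.67%) were higher by at least 4-fold in the support structures, and 245 of the 685 (35.8%) had another such gene directly beside them among the tested genes. Of the 151 genes lower by at least 4-fold (2.13% of those placed), 22 (14.6%) had another lower gene beside them. The share of all placed genes with such a neighbour was not computed, so 35.8% and 14.6% have no base to be set against. A gene can have a neighbour on each side, so 9.67% and 2.13% are not that base. There were 25 runs of 3 or more adjacent higher genes, 95 genes in all, and the longest held 9. That run, which begins at LOC111414148 and includes LOC111420339, was higher by 3.40 to 11.87 log2 units in the support structures, and 6 of its 9 genes were also called in the horn. Its LOC111414144 averaged 12200 ± 2360 CPM in the support structures, 8340 ± 3570 CPM in the horn and 939 ± 412 CPM in the dorsal prothorax (SD, n = 6 each, on the scale of the gene sums), a difference of 3.78 ± 0.21 log2 units in the support structures (adjusted p = 1.29e-08, edgeR). In the runs that begin at LOC111419106, LOC111428462 and LOC111429315, 0 genes were called in the horn against the dorsal prothorax. In a few other runs most genes were higher in the horn than in the support structures. In the run of 5 genes that begins at LOC111418599, the differences from the dorsal prothorax were 3.18 to 8.31 log2 units in the support structures and 5.57 to 12.94 in the horn. The outgrowths differed in 4 of the 5, all lower in the support structures, and LOC111418599 itself did not pass that test (-0.22 log2 units, adjusted p = 0.77, edgeR, gene sums). LOC111418555 in that run averaged 4490 ± 2140 CPM in the support structures, 74900 ± 18100 CPM in the horn and 16.6 ± 14.3 CPM in the dorsal prothorax, again for gene sums. Adjacent genes may be copies that share reads, which was not tested, since no sequences were used here.

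A single run held lower genes, and in it the horn went the other way. The 4 neighbours LOC111427834, LOC111427831, LOC111427828 and LOC111427833 differed by -3.20 to -2.20 log2 units in the support structures and by 1.16 to 2.14 in the horn, all called in both (edgeR, gene sums). LOC111427834, at the -3.20 end, was low, at 0 to 1.24 CPM in the support structures and 0 to 11.9 CPM in the dorsal prothorax. These ranges overlap, and its horn level was 10.2 ± 11.6 CPM. LOC111427831 averaged 445 ± 160 CPM in the support structures, 10800 ± 2580 CPM in the horn and 3810 ± 1000 CPM in the dorsal prothorax, and LOC111427833 averaged 762 ± 209 CPM in the support structures, 7560 ± 1390 CPM in the horn and 3590 ± 1240 CPM in the dorsal prothorax (SD, n = 6 each, scale of the gene sums).

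A second stretch of chromosome was examined because LOC111419103, near 0 in the support structures, and LOC111419116, at 0 in every other tissue, are close neighbours; it was chosen after their values were seen. The stretch holds 13 genes, 8 of them protein coding, and 10 had counts. Of the 6 tested, in chromosome order, the first 2 were lower and the next 4 higher in the support structures. LOC111419103, summed over its transcripts, was at 0 to 0.256 CPM in the support structures, 46.2 to 80.8 CPM in the horn (median 59.6) and 53.6 to 81 CPM in the dorsal prothorax (median 57.7), a difference of -9.63 ± 0.37 log2 units from the dorsal prothorax (adjusted p = 1.44e-09, edgeR). The non-coding LOC111419118 had 0 counts in the support structures, 0.426 to 1.5 CPM in the horn and 0.585 to 1.7 CPM in the dorsal prothorax, from which it differed by at least 54-fold. Next along, LOC111419112 was at 5.01 to 14.7 CPM in the support structures, 2.97 to 6.62 CPM in the horn and 2.19 to 5.71 CPM in the dorsal prothorax, higher by 1.24 ± 0.23 log2 units than in the dorsal prothorax (adjusted p = 0.000547, edgeR), with ranges that overlap. LOC111419106 was at 0.846 to 4.31 CPM in the support structures, up to 0.303 CPM in the horn and up to 0.23 CPM in the dorsal prothorax, higher by 5.10 ± 0.75 log2 units (adjusted p = 7.36e-05, edgeR). At the end of the stretch, LOC111419116 and LOC111419108 had 0 counts in horn and dorsal prothorax. With transcripts summed, LOC111419116 was at least 609-fold above the dorsal prothorax, and LOC111419108, at 6.65 to 12.5 CPM, at least 373-fold.

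The other tissues of the series give further levels for this stretch. On the scale of all 8 tissues LOC111419103 averaged 0.0747 CPM in the support structures and 0.00839 CPM in the wing of the second thoracic segment, 0.692 CPM in the head, and 47 to 90.6 CPM in the 5 prothoracic tissues, the horn (67.5 CPM) and the dorsal prothorax (70.3 CPM) among them. LOC111419112 averaged 9.82 CPM in the support structures, 8.43 CPM in the wing, 1.13 to 7.91 CPM in the prothoracic tissues and 0.0069 CPM in the head. LOC111419116 averaged 16.3 CPM in the support structures and had 0 counts in all columns of the other 7 tissues. The horn therefore had the levels of the flat prothorax, and not those of the support structures, in LOC111419103, LOC111419116 and LOC111419108, and for LOC111419103 horn and dorsal prothorax differed by 0.01 log2 units (adjusted p = 0.968, edgeR, gene sums).

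**Figure D4:**
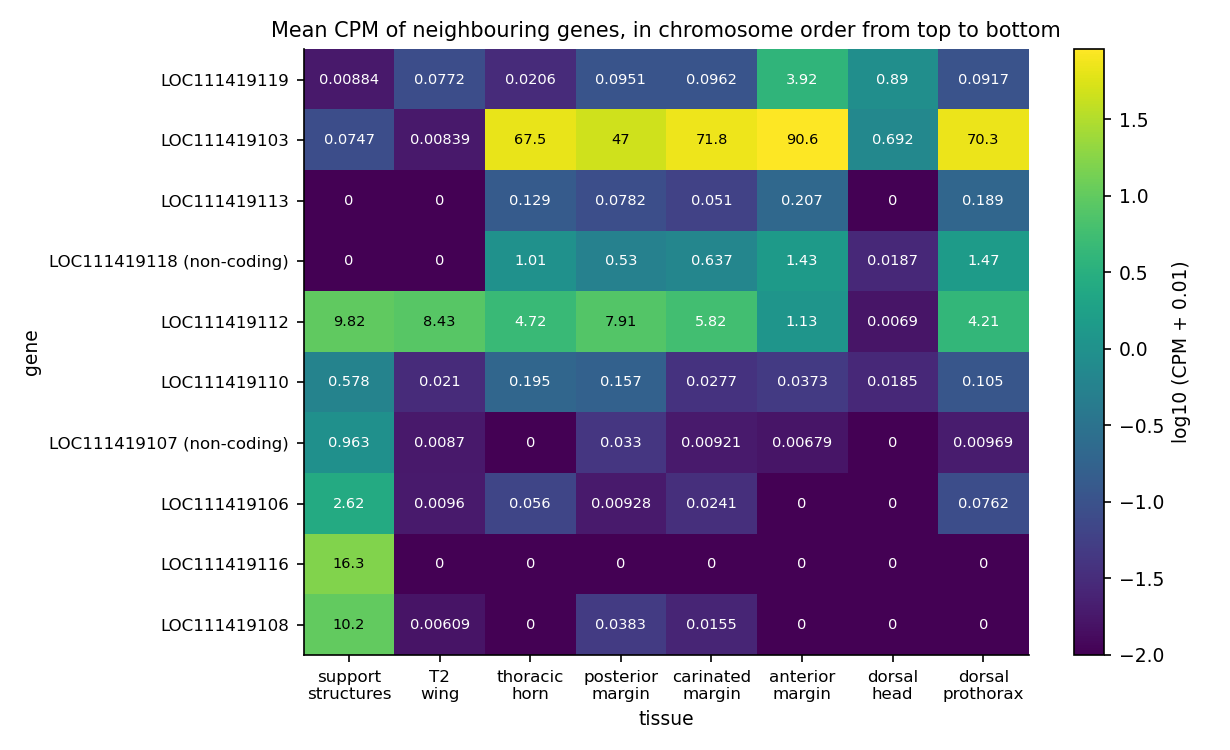
Mean level of 10 neighbouring genes (rows, in chromosome order) in each of the 8 tissues (columns, support structures left and dorsal prothorax right), as CPM on the scale of all 8 tissues, written in each cell and coloured as log10 (CPM + 0.01). LOC111419103 was at 47 to 90.6 CPM in the 5 prothoracic tissues and at 0.0747 CPM in the support structures, and LOC111419116 was at 16.3 CPM in the support structures and 0 elsewhere.

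Over the 8 tissues, 836 of the 1068 transcripts higher by at least 4-fold (78.3%) had their highest mean level in the support structures and 141 (13.2%) in the horn. Of all 13024 tested transcripts 18.6% were highest in the support structures and 18.7% in the horn, but the 1068 were chosen by their level in the support structures, so the first share is a description. In 307 of the 1068 every support structure library lay above all 54 columns of the other tissues, and 373 of all tested transcripts did so. MSB (XM_023058788.1) was among the transcripts that set the support structures apart with no change in the horn past the threshold. It ran from 124 to 235 CPM in the support structures (median 152), from 40.3 to 56.5 CPM in the horn (median 42.9) and from 38.5 to 59.9 CPM in the dorsal prothorax (median 45.7). It was higher by 1.77 ± 0.15 log2 units than in the dorsal prothorax (adjusted p = 3.53e-06, edgeR) and by 1.84 ± 0.15 than in the horn (adjusted p = 2.87e-06). On the scale of all 8 tissues it averaged 186 CPM in the support structures and 44.5 to 61.9 CPM in the other 7. Of the 281 transcripts lower by at least 4-fold, 162 (57.7%) had their lowest mean level in the support structures, against 13.7% of all tested, and the 281 too were chosen by their level there.

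Some shared transcripts followed the replicate number. XM_023046180.1 (no gene matched) stood at 652 CPM in support structure replicate 4 and at 1.15 to 4.12 CPM in the other 5. In the horn it stood at 2150 CPM in replicate 4 and at 0.303 to 2.53 CPM in the others, and in the dorsal prothorax at 0 to 0.199 CPM in all 6. The difference of 9.61 ± 1.73 log2 units over the dorsal prothorax (adjusted p = 0.00107, edgeR) therefore averages over 1 number with a very high level in both outgrowths and 5 with a low one. LOC111420339 (XM_023053314.1) was likewise highest in replicate 5 in both outgrowths, at 897 CPM in the support structures and 689 CPM in the horn, against 79.2 to 215 CPM and 6.96 to 259 CPM in the other numbers. XM_023057270.1 (no gene matched) ran from 0.563 CPM in replicate 4 to 127 CPM in replicate 5 of the support structures, reached 9.19 CPM in the horn, where 3 libraries were at 0, and was at 0 in every dorsal prothorax library. The support structures stood at least 1578-fold above the flat epidermis, at least 905-fold without replicate 2 and at least 853-fold without replicate 5. In the support structures 16 tested transcripts reached 10 CPM in a single library that was at least 10-fold above the next. Of these, 9 were called against the dorsal prothorax, some higher and some lower, where 35.5% of all tested were called. In 4 of the 16 the horn library of the same number stood alone by the same rule, as the dorsal prothorax library did in 3. The same number was the highest in the horn for 10 of the 16 and in the dorsal prothorax for 9. The rate over all tested transcripts was not computed, so these counts have no base. A tissue at 0 in every library was scored as highest in replicate 1.

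**Figure D5:**
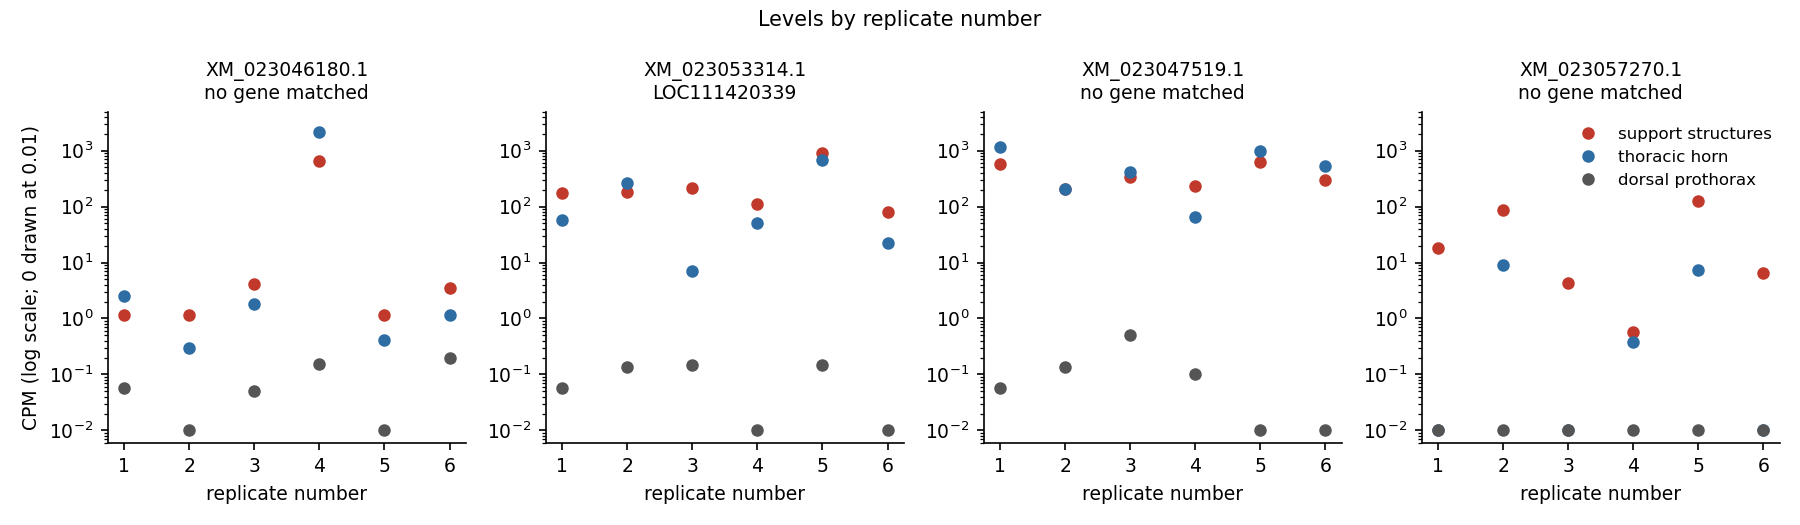
Levels of 4 transcripts by replicate number (CPM, log axis, with 0 drawn at 0.01), in support structures (red), thoracic horn (blue) and dorsal prothorax (grey). XM_023046180.1 was high in both outgrowths of replicate 4, at 652 CPM in the support structures and 2150 CPM in the horn, and XM_023053314.1 was highest in replicate 5 in both.

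Genes with a symbol other than a locus number were few, with 42 transcripts tested, 8 higher and 9 lower in the support structures (40.5% called, against 35.5% of all). The symbols, here and above, are printed as the gene table gives them and may lack a last letter, which was not tested. MR had 4 transcripts that passed the rule for naming, each higher in the support structures. XM_023044477.1 ran from 55.5 to 171 CPM in the support structures, from 0 to 32.3 CPM in the horn and from 3.5 to 16.5 CPM in the dorsal prothorax, higher by 3.57 ± 0.81 log2 units than in the dorsal prothorax (adjusted p = 0.00481, edgeR). XM_023044480.1, XM_023044479.1 and XM_023044478.1 were higher by 1.99 ± 0.21, 1.93 ± 0.27 and 1.41 ± 0.27 log2 units, and in the horn the first and last of these were also called higher, by 1.20 ± 0.21 and 0.81 ± 0.27. Over its 6 tested transcripts the gene was higher by 2.01 ± 0.13 log2 units in the support structures (adjusted p = 6.49e-08, edgeR). RFeS (XM_023064499.1) ran from 16.2 to 19.9 CPM in the support structures, from 20.9 to 30.5 CPM in the horn and from 9.33 to 14.3 CPM in the dorsal prothorax, higher by 0.62 ± 0.08 log2 units in the support structures (adjusted p = 0.000112, edgeR) and by 1.11 ± 0.08 in the horn. CNB (XM_023058115.1) ran from 8.04 to 17.5 CPM in the support structures, from 21.9 to 33.1 CPM in the horn and from 20.2 to 25.6 CPM in the dorsal prothorax, and fell by 0.79 ± 0.17 log2 units in the support structures (adjusted p = 0.00304, edgeR). Apep (XM_023046489.1) and SWI (XM_023045486.1) fell by 0.30 ± 0.07 and 0.43 ± 0.10 (log2; edgeR, adjusted p = 0.00703 and 0.00408), and SWI was not called without the block (adjusted p = 0.245). S1 (XM_023049042.1) was higher by 0.27 ± 0.08 log2 units (adjusted p = 0.026, edgeR), was not called without replicate 2, 5 or 6 (adjusted p = 0.0919, 0.095 and 0.0798) or without the block (adjusted p = 0.097), and with total counts it was at 0.03 (adjusted p = 0.825).

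A set of symbols made of a Greek letter and CO, chosen after the symbols were seen, moved together and by little. The names match those of the coatomer subunits but for a missing last letter. Coatomer is the coat of vesicles that return from the Golgi to the endoplasmic reticulum, though the gene table gives no product for these genes, so the match of names was not tested. Of 7 such genes 6 were tested, 1 transcript each, and 5 were lower and 0 higher in the support structures, against 16.1% of all transcripts lower. betaCO (XM_023064597.1) ran from 27.2 to 35 CPM in the support structures, from 40.3 to 45 CPM in the horn and from 49.4 to 59.2 CPM in the dorsal prothorax, with no overlap between the 3 tissues. It differed by -0.73 ± 0.06 log2 units in the support structures (adjusted p = 5.06e-06, edgeR) and by -0.32 ± 0.06 in the horn (adjusted p = 0.00207). alphaCO (XM_023058960.1) differed by -0.81 ± 0.10 log2 units in the support structures (adjusted p = 6.75e-05, edgeR) and -0.52 ± 0.10 in the horn (adjusted p = 0.00171), and beta'CO (XM_023046091.1) by -0.51 ± 0.09 (adjusted p = 0.00115) and -0.37 ± 0.09 (adjusted p = 0.00907). epsilonCO (XM_023045054.1) and deltaCO (XM_023056682.1) differed in the support structures by -0.28 ± 0.08 and -0.23 ± 0.08 (adjusted p = 0.0203 and 0.0353, edgeR) and were not called in the horn. Both deltaCO and zetaCO fall outside the rule for naming and are given to complete the set. The value of zetaCO (XM_023047775.1) was -0.28 ± 0.11 (adjusted p = 0.0644, edgeR). epsilonCO was not called without replicate 1, 2, 3 or 6 (adjusted p = 0.0941, 0.0531, 0.0686 and 0.0542, edgeR) or without the filter on low counts (adjusted p = 0.0517), and with RLE size factors deltaCO was not called (adjusted p = 0.0537). All 6 kept a negative sign under both other scalings.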

How the data were processed

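Per the labels' protocols, the Qiagen RNeasy Plus Micro kit served for RNA and the TruSeq Stranded mRNA kit for libraries. Per the submitters' processing notes, the tools included RSEM 1.3.0, Bowtie2 2.3.2, Trimmomatic 0.32 and DESeq2. Genome build and strand setting: not given in the sources used here. Expected counts, as the authors deposited them, covered 23725 transcripts in 60 columns, and 29.71% of the values were not whole. Expected counts were rounded. Transcripts of the 18 libraries of 3 tissues were kept by filterByExpr (minimum count 10, minimum total count 15), scaled by TMM and tested with edgeR 4.0.16 (limma 3.58.1, R 4.3.3; quasi-likelihood, tissue plus replicate number), with calls made at 0.05 after Benjamini-Hochberg adjustment. The fit was tested on simulated data.

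Same-numbered libraries deviated together in every pair of tissues (r = 0.14 to 0.292, against at most 0.0543 for other numbers), so the numbers were taken to pair the libraries. Gene names and gene order came from RefSeq (assembly IU_Otau_3.0), where 15104 transcripts matched 10670 genes by accession, with 74.32% of the counts of the 18 libraries. A p-value of the difference between the outgrowths came from the same fit. The members, lists and comparisons were chosen with earlier results of these data known. Transcripts were named from those called, moving the same way in all 6 pairs and averaging at least 10 CPM in the higher tissue: the 10 largest in each direction, the 5 largest in each direction shared with the horn or set apart from it, the 3 largest opposite to it, and those with a symbol; 52 in all. Alternatives were no replicate block, RLE size factors, total counts, no filter, other sets of tissues, DESeq2 1.42.0, gene sums and leaving out each replicate number in all tissues.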

Additional observations from a re-analysis of the deposited data

Results flagged for a closer look

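Among 156 sets of 6 libraries (each named transcript in each tissue), 21 held a library whose gap to the nearest other exceeded Dixon's 95% critical value, where chance alone gives about 1 in 20 sets. Some of these are sets in which a single library has any count. No explanation was tested.

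Replicate 4 stood apart in both outgrowths for XM_023046180.1, at 652 CPM in the support structures (others 1.15 to 4.12) and 2150 CPM in the horn (others 0.303 to 2.53). Replicate 5 did so for LOC111420339 (XM_023053314.1), at 897 CPM in the support structures (others 79.2 to 215) and 689 CPM in the horn (others 6.96 to 259). Other sets in the support structures were LOC111414125 (XM_023045312.1) with 8.59 CPM in replicate 2 (others 4.09 to 4.97), alphaCO (XM_023058960.1) with 49.1 CPM in replicate 5 (others 35.1 to 40.2), XM_023044414.1 with 0.342 CPM in replicate 2 (others 0) and LOC111419103 (XM_023051861.1) with 0.256 CPM in replicate 2 (others 0 to 0.0939).

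In the horn, XM_023058521.1 stood at 1780 CPM in replicate 4 (others 726 to 1070), LOC111419668 (XM_023052514.1) at 31.9 CPM in replicate 4 (others 0.224 to 2.97), LOC111421165 (XM_023054309.1) at 15.8 CPM in replicate 4 (others 0 to 2.09) and LOC111425664 (XM_023059846.1) at 3.65 CPM in replicate 4 (others 0). XR_002707541.1 stood at 13.3 CPM in replicate 2 (others 0.224 to 3.63) and LOC111427445 (XM_023062598.1) at 7.17 CPM in replicate 2 (others 0 to 0.337). LOC111422534 (XM_023055738.1) stood at 20.3 CPM and LOC111426932 (XM_023061829.1) at 0.639 CPM in replicate 6, and LOC111428168 (XM_023063584.1) at 0.11 CPM in replicate 1, each with 0 in the others.

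In the dorsal prothorax, LOC111427847 (XM_023063190.1) stood at 24 CPM in replicate 2 (others 4.38 to 10.1), XM_023047519.1 at 0.499 CPM in replicate 3 (others 0 to 0.138), XM_023053839.1 at 0.195 CPM in replicate 5 (others 0), and XM_023054874.1 was low at 2.68 CPM in replicate 1 (others 14.6 to 21.1).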

How the results depend on the processing

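Without the replicate block 3594 transcripts were called in support structures against dorsal prothorax (3515 of them also called with it), 3495 in horn against dorsal prothorax, 3776 in support structures against horn, and 1528 were shared by both outgrowths. Leaving out each replicate number gave 3935 to 4089, 3590 to 4305, 3955 to 4245 and 1619 to 1988. Scaled by total counts, these were 5091, 8867, 8347 and 3363. With that scaling 36.8%, 7.04% and 93.1% of the calls in the first 3 were higher in the first-named tissue, against 54.5%, 48% and 55.5% with TMM, so that the majority of support structure calls against the dorsal prothorax turned from higher to lower. The median of all transcripts moved by -0.239, -1.14 and 0.902 log2 units; the cause was not tested. DESeq2 called 5701 and gene sums 4029 of 7390 genes in support structures against dorsal prothorax. Of the 52 named transcripts 46 kept their direction and call in every alternative run that held them, 5 lost the call in at least 1 that left out a replicate number, and 0 changed sign. The run of gene sums covered 36 of the 52, through the sum of the gene and not the transcript itself. The tests of gene lists were void, as 0 lists of gene words had a true match and the protein signatures were not applied. Transcripts near 0 in a tissue limit the precision of a fold to that of a few counts.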
